A study of Arabidopsis thaliana with 6 samples.

Results

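Aquaporins are channel proteins that let water, and in some members small neutral solutes, pass through a membrane. The transcripts of the Arabidopsis thaliana aquaporin family were measured by RNA-seq in whole dark-grown seedlings of a wild type and of a pair of mutant lines. This family was chosen with earlier results of these data known, so counts of its members beside those of all genes are descriptive. Membership was set by locus and not by any measured value, as the 35 genes of the plasma membrane (PIP), tonoplast (TIP), nodulin 26-like (NIP) and small basic (SIP) intrinsic proteins. Of these, 32 had a row among the 24439 genes of the files, namely 5 PIP1, 8 PIP2, 8 TIP, 8 NIP and 3 SIP genes. TIP1-3, TIP5-1 and NIP4-1 are not analysed here. The files name genes by locus only, and the symbols are written here with a hyphen, as UniProt does.

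The study addresses how the protein phosphatase PP6 and the PIF transcription factors act on seedlings in darkness. Col is the wild type, with 2 libraries. The line f1f3, also with 2 libraries, is homozygous for mutations in FYPP1 and FYPP3, which encode catalytic subunits of PP6. The line pifq, again with 2 libraries, is a homozygous quadruple mutant whose misspelled genotype label was read as pif1 pif3 pif4 pif5. Seeds of every genotype were kept at 4 °C for 3 days, received white light for 12 h and then stayed in the dark at 22 °C for 4 days, so no group was grown in light. The alleles and the number of seedlings per library are not given in the sources used here. No label says that the 2 libraries of a genotype came from separate plantings, so p-values measure only the spread between these libraries, which may be technical.

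A dark-grown seedling grows mainly by filling the vacuoles of its elongating hypocotyl cells with water. PIP proteins sit mostly in the plasma membrane, where PIP2 members are efficient water channels and PIP1 members often reach the membrane only together with a PIP2 partner. TIP proteins sit in the vacuole membrane, several NIP proteins carry boric acid or other small uncharged solutes, and SIP proteins are found in the endoplasmic reticulum. Aquaporin activity is also set after transcription by phosphorylation, trafficking and degradation, which RNA-seq does not measure.

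The libraries held between 17.9 M and 27.7 M reads in genes, recovered from the deposited values, which are reads divided by a factor per library. All values below are on that scale. In f1f3 the transcripts of FYPP1 (log2 fold change -1.14, limma adjusted p = 0.00846) and FYPP3 (-1.11, limma adjusted p = 0.00737) were reduced, in keeping with the label. In pifq this held for PIF3 (-5.24, limma adjusted p = 4.56e-05) and PIF5 (-2.32, limma adjusted p = 0.00932). PIF1 and PIF4 did not pass in pifq (log2 fold changes 0.46 and 0.89), and a transcript level does not show whether an allele is disrupted. FYPP1 lost its call without f1f3 replicate 2 (limma adjusted p = 0.0538) and PIF5 without pifq replicate 1 (limma adjusted p = 0.0595), the highest values over 16 alternatives each. PIF4 and PIF5 also fell in f1f3 against Col. There PIF4 kept its call in all 16 alternatives, while PIF5 lost it in 5. PIF5 was not called in pifq against f1f3. Each comparison used limma on log2 of the value plus 1, with all 6 libraries in 1 fit, over the 20581 genes that reached a value of 10 in 2 or more libraries, at a Benjamini-Hochberg adjusted p under 0.05. Marker sums differed between libraries. The 17 root markers, all in the files, summed to 14007 and 15930 in Col, 29012 and 29904 in f1f3 and 5355 and 9459 in pifq. The root hair genes LRX1 and PRP3 carried the higher sum in f1f3. Without them, a split made after the values were seen, the other 15 summed to 9874 and 9523 in Col, 7450 and 5687 in f1f3 and 4039 and 5314 in pifq, lower in both f1f3 libraries than in both Col libraries. None of the 17 was at 0 in any library. The 14 seed maturation markers summed to 230.2 and 37 in Col, 183 and 255 in f1f3 and 21185 and 49.7 in pifq, and 10 of them reached a value of 10 in at least 2 libraries. Each was above 0 in pifq replicate 1, while SESA4, a storage albumin, was at 0 in 3 of the other libraries. The 6 dark-grown shoot markers did not move together. PORA, an enzyme of chlorophyll synthesis, stood at 70965 and 64658 in Col, 38261 and 30154 in f1f3 and 9679 and 9810 in pifq and fell in both mutants (log2 fold change -0.996, limma adjusted p = 0.0388 in f1f3, and -2.80, limma adjusted p = 0.00236 in pifq). PDF1, a gene of the shoot epidermis, rose in f1f3 (1.43, limma adjusted p = 0.0189), and HLS1, needed for the apical hook, fell in pifq (-2.00, limma adjusted p = 0.00715). Against Col, ML1 of the epidermis had log2 fold changes of 0.41 in f1f3 and 0.60 in pifq, and RBCS1A of photosynthesis -1.57 and -0.03. Neither of these passed in either mutant, nor did CER6 of wax synthesis (-0.82 and -0.57). In f1f3, PORA lost its call in 7 of 16 alternatives (all but f1f3 replicate 1 of the left-out libraries, no filter, and the 2 groups alone, limma adjusted p up to 0.156). PDF1 lost its call without Col replicate 2 or f1f3 replicate 1 (up to 0.139). In whole seedlings, fewer cells of a type and less RNA per cell cannot be told apart.

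The 2 libraries of f1f3 differed from each other in the abundant aquaporins. Of the 18 members with a mean value of at least 1000 over the 6 libraries, 18 were higher in f1f3 replicate 1 than in replicate 2, by a median of 1.93-fold. In Col 18 were higher in replicate 1, by a median of 1.28-fold, and in pifq 5 were, with a median ratio of 0.921. Over the 4368 tested genes of that level, the median ratios were 1.08 in f1f3, 1.02 in Col and 1 in pifq. The cause of this difference was not tested. Calls lost without f1f3 replicate 2 are named beside each result below.

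**Figure D1:**
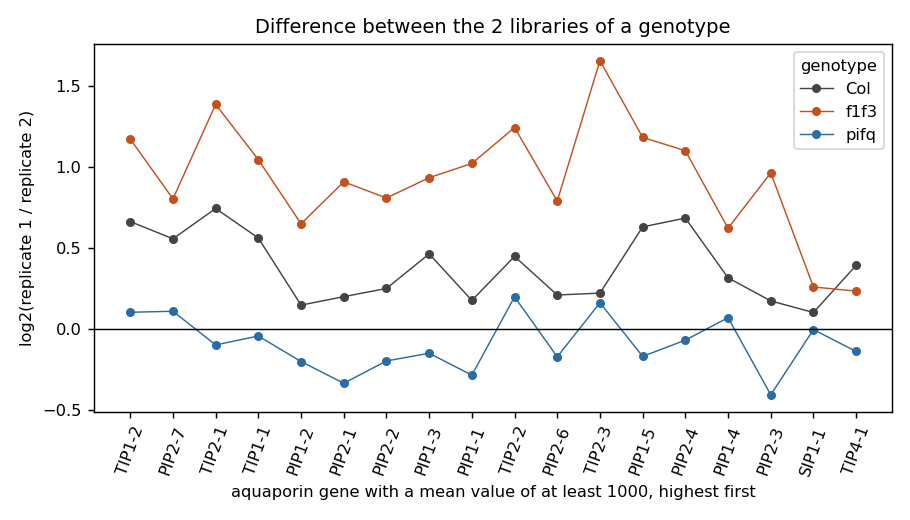
Log2 ratio of replicate 1 to replicate 2 (vertical axis) for the 18 aquaporins with a mean value of at least 1000, ordered from the highest mean on the left, with 1 point per genotype joined by lines. All f1f3 points lie above 0, as do all Col points, whereas 13 of the 18 pifq points lie below 0.

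Abundant aquaporins in the wild type were tonoplast and plasma membrane members, with TIP1-2 above all others. Per kilobase of RefSeq transcript, TIP1-2, a vacuolar water channel, reached 125820 ± 40133 (SD, n = 2) in Col, and it also ranked first in f1f3, at 75798 ± 41258 (SD, n = 2), and in pifq, at 115635 ± 5850 (SD, n = 2). Its 2 Col libraries lay above those of the next gene, TIP2-1, which stood at 31379 ± 11179 (SD, n = 2) per kilobase. From TIP2-1 down through TIP1-1, PIP1-2, PIP2-1, PIP2-2, PIP2-7, PIP1-3 and PIP1-1 to TIP2-2, at 13771 ± 2996 (SD, n = 2) per kilobase, each gene overlapped the next in its Col libraries, so their order is not settled by these libraries. A step without overlap followed to PIP2-6 at 6955 ± 713 (SD, n = 2) per kilobase. TIP2-3, PIP2-4 and PIP1-5 overlapped their neighbours just below it. PIP2-3, PIP1-4 and SIP1-1 came next, each without overlap.

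NIP and SIP transcripts were far lower. The highest NIP gene per kilobase in Col was NIP1-1, a channel that also passes arsenite, at 688 ± 52.3 (SD, n = 2) per kilobase, and the highest SIP gene was SIP1-1, at 1010 ± 50.4 (SD, n = 2) per kilobase. NIP4-2 (AT5G37820), known from pollen, reached at most 1.8 and NIP7-1 (AT3G06100), known from anthers, at most 6.8 in any library, and both were below the level needed for a test. The pollen markers found, 4 of 7, summed to 217 and 276 in Col, 200.1 and 168 in f1f3 and 211 and 163 in pifq, most of it from ANX1. TIP3-1 (AT1G73190), a channel of the seed protein storage vacuole, stood at 15.4 and 0 in Col, 2.1 and 0 in f1f3 and 129 and 0 in pifq. Only pifq replicate 1 held more than a trace of it. That library also carried the seed maturation marker sum of 21185, against at most 255 in any other. A count of 0 allows up to 3 reads, so TIP3-1 is not shown to be absent from the libraries at 0.

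**Figure D2:**
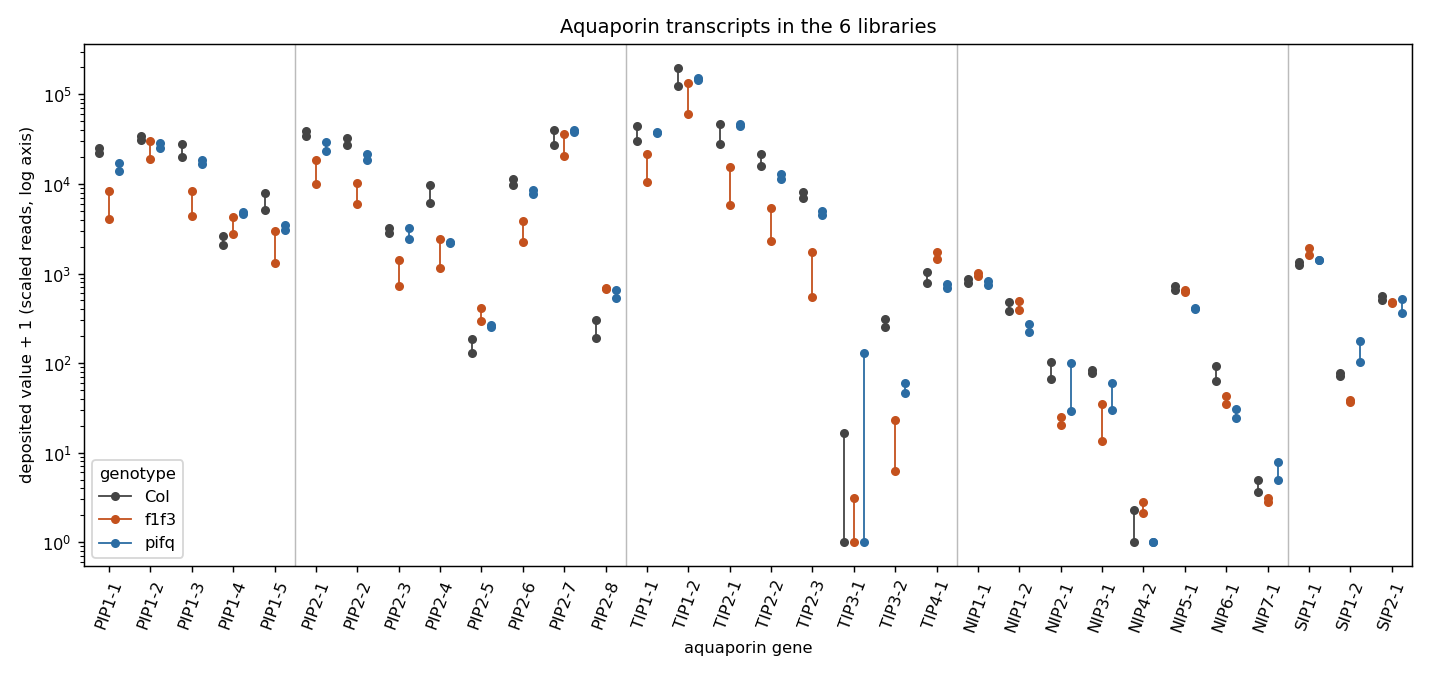
Deposited value plus 1 on a log axis (vertical) for each of the 32 aquaporins found in the files (horizontal), with 1 point per library and a line joining the 2 libraries of a genotype. In the PIP and TIP sections most f1f3 points lie below the Col points, with PIP1-4, PIP2-5, PIP2-8 and TIP4-1 above them.

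Summed over a subfamily, plasma membrane and tonoplast aquaporins were lower in f1f3 than in Col and closer to Col in pifq. The 5 PIP1 genes summed to 97419 and 80258 in Col, 54051 and 31794 in f1f3 and 63688 and 72456 in pifq, and the 8 PIP2 genes to 136514 and 107769 in Col, 74104 and 41752 in f1f3 and 95807 and 103380 in pifq. The 8 TIP genes summed to 321584 and 207890 in Col, 181015 and 80703 in f1f3 and 254336 and 245605 in pifq. In all these sums both f1f3 libraries lay below both Col libraries, with means 0.483, 0.474 and 0.494 times those of Col for PIP1, PIP2 and TIP. The pifq libraries lay below both Col libraries for PIP1 and PIP2, and between them for TIP. TIP1-2 makes up much of the TIP sum, and without it the TIP mean of f1f3 was 0.323 times that of Col and the mean of pifq 0.984 times. NIP genes summed to 2343 and 2016 in Col, 2274 and 2023 in f1f3 and 1647 and 1511 in pifq, and SIP genes to 1926 and 1890 in Col, 2428 and 2126 in f1f3 and 1865 and 2103 in pifq. The NIP sums of both f1f3 libraries lay within the range of Col, while both pifq libraries were below Col. Over the whole family the sum was 559787 and 399824 in Col, 313872 and 158398 in f1f3 and 417343 and 425056 in pifq. These sums carry no test.

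**Figure D3:**
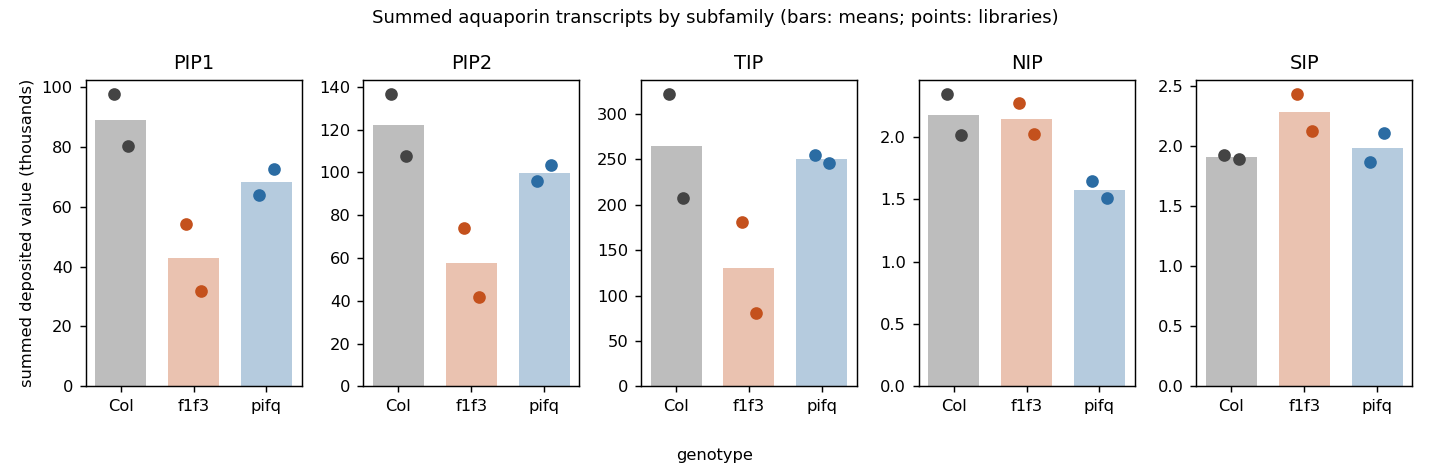
Summed deposited values divided by 1000 (vertical axis, starting at 0) of the PIP1, PIP2, TIP, NIP and SIP genes by genotype, where bars are means and points are the 2 libraries. The f1f3 points lie below the Col points for PIP1, PIP2 and TIP, and the pifq points below them for PIP1, PIP2 and NIP.

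Of the 30 aquaporins tested in f1f3 against Col, 15 fell, 3 rose and 12 did not pass. Among all tested genes 12.8% fell and 11.6% rose, or 24.4% together. The median log2 fold change of the 30 was -1.25, against -0.0038 over all tested genes. Among the 18 members with a mean value of at least 1000, 12 fell and 1 rose, with 18.1% and 13.7% of all tested genes of that level. Both f1f3 libraries were below both Col libraries for 19 of the 30 and above both for 6, where 33% and 32.8% of all tested genes were. When the libraries were scaled to their totals, the median of all genes moved from -0.0038 to 0.12 and 58.3% of all calls were rises, against 47.5%. Relative to that median the aquaporins stayed low: 14 fell and 5 rose (PIP1-4 and SIP1-1 in addition), and no call changed direction. The number of members that fell was 9 without Col replicate 1 and again 9 without f1f3 replicate 2. The number that rose was 1 without Col replicate 2, 1 without f1f3 replicate 1 and 2 without f1f3 replicate 2.

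Of the 5 PIP1 genes, 3 fell in f1f3. PIP1-1 (AT3G61430) stood at 24948 and 22075 in Col, 8241 and 4063 in f1f3 and 14015 and 17067 in pifq. Both f1f3 libraries were far below both Col libraries, and the pifq libraries lay between (f1f3 against Col, log2 fold change -2.02 with SE 0.34, limma adjusted p = 0.00688). PIP1-3 (AT1G01620) stood at 27851 and 20204 in Col, 8407 and 4404 in f1f3 and 16567 and 18372 in pifq. The same order held, with no overlap between genotypes (f1f3 against Col, log2 fold change -1.96 with SE 0.34, limma adjusted p = 0.0074). PIP1-5 (AT4G23400) stood at 7991 and 5166 in Col, 2988 and 1318 in f1f3 and 3095 and 3479 in pifq, with f1f3 lowest, pifq between and no overlap (log2 fold change -1.69 with SE 0.37, limma adjusted p = 0.0158). The call of PIP1-5 was lost without Col replicate 1 (limma adjusted p = 0.0663) or without f1f3 replicate 2 (limma adjusted p = 0.0685). Over 16 alternatives the adjusted p of PIP1-5 ran from 0.0002 to 0.0685.

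The other PIP1 genes did not pass in f1f3. PIP1-2 (AT2G45960), which passes water and has been linked to carbon dioxide transport, was the most abundant PIP1 gene per kilobase in each genotype and stood at 34016 and 30713 in Col, 30123 and 19217 in f1f3 and 25203 and 28958 in pifq. Its f1f3 libraries were both below Col, but the difference did not pass (log2 fold change -0.43 with SE 0.32, limma adjusted p = 0.359). PIP1-4 (AT4G00430) stood at 2614 and 2100 in Col, 4293 and 2791 in f1f3 and 4808 and 4581 in pifq. Both f1f3 libraries lay above both Col libraries, but the difference did not pass (log2 fold change 0.56 with SE 0.24, limma adjusted p = 0.118).

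Among the 8 PIP2 genes, 5 fell and 2 rose in f1f3. PIP2-1 and PIP2-2 are water channels known for root water uptake. Per kilobase, PIP2-1 had the highest mean of the PIP2 genes in Col, but its Col libraries overlapped those of PIP2-2 and PIP2-7. PIP2-1 (AT3G53420) stood at 39491 and 34392 in Col, 18674 and 9959 in f1f3 and 23331 and 29412 in pifq, where both f1f3 libraries were the lowest of the 6 (log2 fold change -1.43 with SE 0.35, limma adjusted p = 0.0233). This call was lost without Col replicate 1 (limma adjusted p = 0.0965), Col replicate 2 (limma adjusted p = 0.0798) or f1f3 replicate 2 (limma adjusted p = 0.109). Over 16 alternatives the adjusted p of PIP2-1 ran from 0.000124 to 0.109. PIP2-2 (AT2G37170) stood at 32485 and 27316 in Col, 10380 and 5931 in f1f3 and 18732 and 21468 in pifq. Its 3 genotypes did not overlap, with f1f3 lowest and Col highest (log2 fold change -1.92 with SE 0.32, limma adjusted p = 0.00631). PIP2-3 (AT2G37180) stood at 3184 and 2824 in Col, 1418 and 728 in f1f3 and 2457 and 3254 in pifq, so f1f3 was again lowest, while pifq and Col overlapped (log2 fold change -1.56 with SE 0.30, limma adjusted p = 0.0108).

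PIP2-2 and PIP2-3 are neighbours on chromosome 2, divergently transcribed, at chr2:15613368-15615022 (minus strand) and chr2:15617635-15619155 (plus strand) (TAIR10.1), with 4 exons each. Their near-identical stretches limit how far reads can be assigned to one or the other. Of the 50-base words of their transcripts, 19.6% of those of PIP2-2 and 21.7% of those of PIP2-3 also occur elsewhere in the genome or in another member's transcript. Of the 100-base words, 11.5% and 12.8% do. The read length is not given in the sources used here. To show what a counter has to work with, 120 bases of the coding sequence are given from RefSeq (TAIR10.1), with the 4 positions that differ in capitals. They are bases 214 to 333 of the PIP2-2 coding sequence and 85 to 204 of that of PIP2-3.
PIP2-2: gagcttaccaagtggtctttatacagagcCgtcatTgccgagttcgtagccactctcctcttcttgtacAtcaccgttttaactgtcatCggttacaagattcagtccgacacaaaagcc
PIP2-3: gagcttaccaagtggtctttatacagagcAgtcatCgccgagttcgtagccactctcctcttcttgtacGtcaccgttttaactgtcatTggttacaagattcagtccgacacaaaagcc
Their separate values are therefore uncertain, although both were called in the same direction.

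PIP2-4 and PIP2-6 also fell in f1f3. PIP2-4 (AT5G60660) stood at 9740 and 6064 in Col, 2455 and 1146 in f1f3 and 2165 and 2270 in pifq. Both mutants were below Col, and the pifq libraries lay within the range of f1f3 (f1f3 against Col, log2 fold change -2.19 with SE 0.36, limma adjusted p = 0.00623). PIP2-6 (AT2G39010) stood at 11256 and 9734 in Col, 3886 and 2250 in f1f3 and 7636 and 8600 in pifq, and the genotypes did not overlap (f1f3 against Col, log2 fold change -1.82 with SE 0.27, limma adjusted p = 0.00491). PIP2-7 (AT4G35100), which is close in level to PIP2-1 in Col, ranged from 20766 to 40564 over the 6 libraries and did not pass in any comparison.

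The rises were in the PIP2 genes of lowest level. PIP2-8 (AT2G16850) stood at 298 and 191 in Col, 675 and 682 in f1f3 and 653 and 526 in pifq. Both f1f3 libraries lay above both Col libraries and above pifq (log2 fold change 1.50 with SE 0.24, limma adjusted p = 0.00603). PIP2-5 (AT3G54820) stood at 186 and 128 in Col, 412 and 290.5 in f1f3 and 268 and 249.7 in pifq, with the same order (log2 fold change 1.16 with SE 0.27, limma adjusted p = 0.0188). The rise of PIP2-5 was lost without Col replicate 2 (limma adjusted p = 0.101) and without f1f3 replicate 1 (limma adjusted p = 0.0867). Over 16 alternatives the adjusted p of PIP2-5 ran from 0.0021 to 0.101. PIP2-7 and PIP2-8 share 84.0% of their aligned coding bases, yet no 50-base word of either transcript occurs in another.

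Among the 8 TIP genes tested, 5 fell and 1 rose in f1f3, and the TIP2 genes fell together. TIP2-1 (delta-TIP), TIP2-2 and TIP2-3 are vacuole membrane channels, of which TIP2-1 and TIP2-3 also pass ammonia. TIP2-1 (AT3G16240) stood at 46709 and 27911 in Col, 15287 and 5855 in f1f3 and 44178 and 47279 in pifq. Its f1f3 libraries lay below all others, and pifq overlapped Col (log2 fold change -1.93 with SE 0.47, limma adjusted p = 0.022). TIP2-2 (AT4G17340) stood at 21499 and 15766 in Col, 5397 and 2282 in f1f3 and 12982 and 11315 in pifq, without overlap between genotypes (log2 fold change -2.39 with SE 0.38, limma adjusted p = 0.00594). TIP2-3 (AT5G47450) stood at 8199 and 7033 in Col, 1729 and 549.5 in f1f3 and 5025 and 4491 in pifq, also without overlap (log2 fold change -2.96 with SE 0.45, limma adjusted p = 0.00491). For TIP2-1 the call was lost without Col replicate 1 (limma adjusted p = 0.0998) or without f1f3 replicate 2 (limma adjusted p = 0.101). Over 16 alternatives the adjusted p of TIP2-1 ran from 0.000115 to 0.101. The summed TIP2 value was 76406 and 50710 in Col, 22413 and 8687 in f1f3 and 62185 and 63085 in pifq.

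The water channel of the vacuole known as gamma-TIP, TIP1-1 (AT2G36830) stood at 44899 and 30439 in Col, 21448 and 10406 in f1f3 and 36768 and 37883 in pifq. Both f1f3 libraries were below the others, close to the threshold of the test (log2 fold change -1.31 with SE 0.40, limma adjusted p = 0.0465). That call was lost without Col replicate 1 (limma adjusted p = 0.202), Col replicate 2 (0.0878 by limma), f1f3 replicate 2 (0.213), pifq replicate 1 (0.0636) and pifq replicate 2 (0.0654). It was also lost with no filter on low values (0.0684 by limma) and with the 2 groups alone (0.0611). Over 16 alternatives the adjusted p of TIP1-1 ran from 0.00223 to 0.213. Its closest relative TIP1-2 (AT3G26520) stood at 198916 and 125700 in Col, 135413 and 60144 in f1f3 and 154505 and 143833 in pifq. The f1f3 and Col libraries overlapped and the difference did not pass (log2 fold change -0.81 with SE 0.58, limma adjusted p = 0.336).

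TIP3-2 (AT1G17810), a vacuolar channel known from seeds that overlaps other annotated genes, stood at 308 and 250.3 in Col, 22.2 and 5.3 in f1f3 and 59.1 and 45.4 in pifq. The genotypes did not overlap, with f1f3 lowest and Col highest, and among the 30 tested members this was the largest fall in f1f3 (log2 fold change -4.53 with SE 0.57, limma adjusted p = 0.00309). Unlike TIP3-1, it was not highest in pifq replicate 1, where the seed maturation markers were. TIP4-1 (AT2G25810), a root-expressed channel that also passes urea, stood at 1040 and 792 in Col, 1716 and 1460 in f1f3 and 689.9 and 759 in pifq. Both f1f3 libraries were above all others (log2 fold change 0.80 with SE 0.19, limma adjusted p = 0.0215). The rise of TIP4-1 was lost without Col replicate 2 (limma adjusted p = 0.135), f1f3 replicate 1 (limma adjusted p = 0.091) or f1f3 replicate 2 (limma adjusted p = 0.0637). Over 16 alternatives the adjusted p of TIP4-1 ran from 0.00413 to 0.135. The sum of all 17 root markers was higher in f1f3 than in Col. Without LRX1 and PRP3, a split made after the values were seen, the sum of the other 15 was lower. Those 15 still include genes that rose and genes that fell. In f1f3, 6 of the 17 root markers rose, namely the root hair genes EXPA7, EXPA18, COBL9, LRX1 and PRP3 and the meristem gene PLT2. The 4 that fell were IRT1 (iron uptake), CASP4 and CASP5 (endodermis) and SKOR (potassium loading into xylem). Of all tested genes, 11.6% rose and 12.8% fell in f1f3 against Col. Without f1f3 replicate 2, 7 of the 10 calls in f1f3 were lost (those of EXPA7, COBL9, LRX1, PRP3, CASP4, PLT2 and SKOR). The part of root tissue in these values was not tested.

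**Figure D4:**
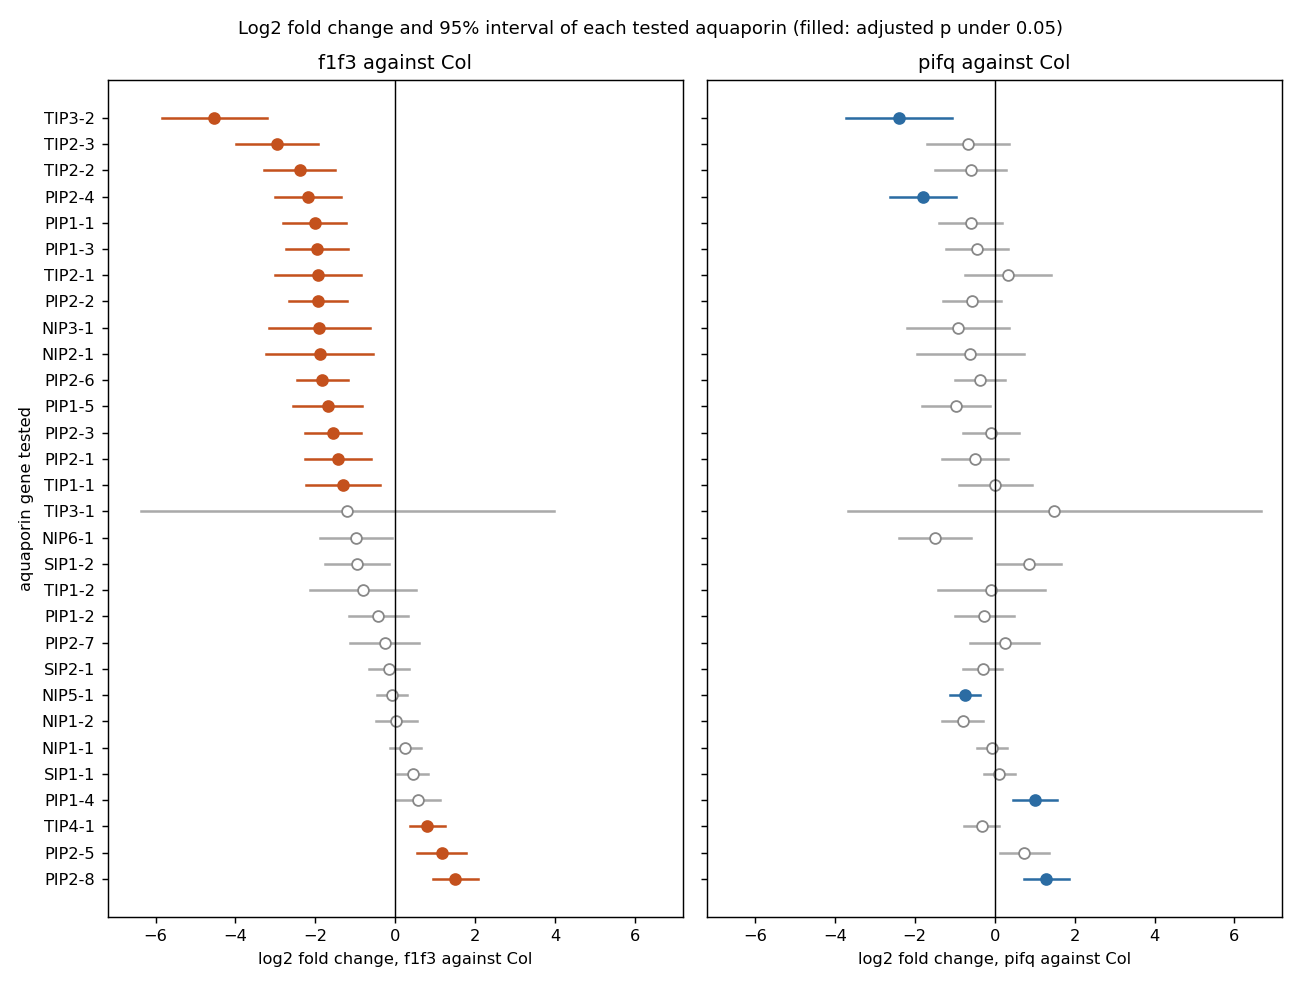
Log2 fold change (horizontal axis) with its 95% interval for each of the 30 tested aquaporins, ordered by the change in f1f3, for f1f3 against Col on the left and pifq against Col on the right. Both panels share the Col libraries, and filled points passed at an adjusted p under 0.05: 18 on the left and 5 on the right.

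Of the 6 NIP genes tested, 2 fell in f1f3, both at low level. NIP2-1 (AT2G34390), known as a channel for lactic acid in roots short of oxygen, stood at 103 and 64.8 in Col, 19.1 and 23.7 in f1f3 and 99 and 28.4 in pifq. Its f1f3 libraries were the lowest of the 6 (log2 fold change -1.89 with SE 0.58, limma adjusted p = 0.0478). NIP3-1 (AT1G31885), which passes arsenite, stood at 75.8 and 83.1 in Col, 33.9 and 12.3 in f1f3 and 28.7 and 59 in pifq, with f1f3 below Col and overlapping pifq (log2 fold change -1.90 with SE 0.55, limma adjusted p = 0.0405). Both calls sat near the threshold. The fall of NIP2-1 was lost without Col replicate 1 (limma adjusted p = 0.184), Col replicate 2 (0.0855), f1f3 replicate 1 (0.145) and f1f3 replicate 2 (0.129). That of NIP3-1 was lost without Col replicate 1 (limma adjusted p = 0.106), Col replicate 2 (0.138) and f1f3 replicate 2 (0.188), and both were lost with edgeR (adjusted p = 0.0518 and 0.0528). With no filter on low values both were lost as well (limma adjusted p = 0.0604 and 0.0518). NIP2-1 was also lost when scaled to library totals (limma adjusted p = 0.0507) and with a filter at a value of 50 (0.0514). Over the alternatives run, the adjusted p ranged from 0.0128 to 0.184 for NIP2-1 and from 0.0179 to 0.188 for NIP3-1. Of the 50-base words, 8.54% of NIP2-1 and 10.8% of NIP3-1 occur elsewhere in the genome or in another member's transcript. Whether the genomic matches lie in transcripts was not checked. NIP2-1 also shares 1432 bases with an annotated noncoding gene.

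NIP1-1 (AT4G19030) stood at 867 and 779 in Col, 1025 and 937 in f1f3 and 824 and 750.2 in pifq and did not pass in f1f3 (log2 fold change 0.25 with SE 0.17, limma adjusted p = 0.292). NIP5-1 (AT4G10380), the boric acid channel for uptake by the root, stood at 716 and 645 in Col, 656 and 626 in f1f3 and 395 and 415 in pifq. Its f1f3 and Col libraries overlapped (log2 fold change -0.08 with SE 0.17, limma adjusted p = 0.745). NIP6-1 (AT1G80760), a boric acid channel of the shoot, stood at 92.5 and 61.3 in Col, 41.3 and 34.2 in f1f3 and 23.2 and 29.5 in pifq and did not pass by limma in any comparison. Both pifq libraries were below both Col libraries (log2 fold change -1.49 with SE 0.39, limma adjusted p = 0.0632), a difference that DESeq2 called (adjusted p = 0.0228). All 3 SIP genes stayed short of the threshold in f1f3. SIP1-1 (AT3G04090) stood at 1351 and 1258 in Col, 1922 and 1606 in f1f3 and 1406 and 1410 in pifq, with both f1f3 libraries the highest (log2 fold change 0.43 with SE 0.17, limma adjusted p = 0.095). SIP1-2 (AT5G18290) stood at 70.7 and 76.1 in Col, 38.1 and 36 in f1f3 and 101 and 176 in pifq, where the genotypes did not overlap (log2 fold change -0.97 with SE 0.35, limma adjusted p = 0.0765). SIP2-1 (AT3G56950) ranged from 358 to 556.

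In pifq against Col, 5 of the 30 aquaporins changed: PIP1-4 and PIP2-8 rose, and PIP2-4, TIP3-2 and NIP5-1 fell. Among all tested genes 3.61% rose and 2.87% fell, or 6.48% together. Of the 18 members with a mean value of at least 1000, 1 rose and 1 fell, where 4.26% and 4.35% of all tested genes of that level did. The median log2 fold change of the 30 was -0.35, against -0.011 over all tested genes. Both pifq libraries were below both Col libraries for 16 of the 30, where 27.4% of all tested genes were, and above both for 5, where 27.1% were. PIP1-4, given above with its library values, had a mean of 4694 ± 161 (SD, n = 2) in pifq and 2357 ± 363 (SD, n = 2) in Col (log2 fold change 1.002 with SE 0.24, limma adjusted p = 0.0466). PIP2-8 had 589 ± 90.3 (SD, n = 2) and 244 ± 75.9 (SD, n = 2) (log2 fold change 1.29 with SE 0.24, limma adjusted p = 0.0226). In both genes the pifq libraries lay above the Col libraries.

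PIP2-4 had a mean of 2217 ± 74.4 (SD, n = 2) in pifq and 7902 ± 2599 (SD, n = 2) in Col (log2 fold change -1.79 with SE 0.36, limma adjusted p = 0.0273), and its pifq libraries differed little from each other. TIP3-2 had 52.2 ± 9.69 (SD, n = 2) and 279 ± 41.1 (SD, n = 2) (log2 fold change -2.40 with SE 0.57, limma adjusted p = 0.048). NIP5-1 had 405 ± 14.2 (SD, n = 2) and 680.4 ± 50.1 (SD, n = 2) (log2 fold change -0.74 with SE 0.17, limma adjusted p = 0.0396), without overlap. All 5 calls were lost without pifq replicate 1 and again without pifq replicate 2. Without Col replicate 1 only PIP2-8 remained, and without Col replicate 2 only PIP2-4. Over these 4 fits the limma adjusted p of the lost calls ran from 0.0571 (PIP2-8, without pifq replicate 2) to 0.213 (PIP1-4, without Col replicate 2). The fall of NIP5-1 was also lost without f1f3 replicate 1 (limma adjusted p = 0.0556) and f1f3 replicate 2 (limma adjusted p = 0.0567), and with the 2 groups alone (0.0573). PIP1-4 was also lost with no filter (limma adjusted p = 0.0528), and TIP3-2 with no filter (0.0601) and with a pseudocount of 0.5 (0.0535). DESeq2 called NIP1-2 as a further fall, beside NIP6-1 (adjusted p = 0.0368).

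Several abundant members that fell in f1f3 did not pass in pifq. Since both comparisons share the Col libraries, their values are given side by side only. The log2 fold changes in f1f3 and pifq were -2.02 and -0.60 for PIP1-1, and -1.92 and -0.57 for PIP2-2. They were -1.93 and 0.34 for TIP2-1, and -1.31 and 0.01 for TIP1-1. The difference between the mutants was tested directly.

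In pifq against f1f3, 10 of the 30 aquaporins rose and 3 fell, where 9.36% and 6.63% of all tested genes did, or 16% together. Of the 18 members with a mean value of at least 1000, 8 rose and 1 fell, where 13.2% and 9.5% of all tested genes of that level did. Both pifq libraries were above both f1f3 libraries for 17 of the 30 and below both for 8, where 29.3% and 30% of all tested genes were. The median log2 fold change was 0.83, against -0.02 over all tested genes. The rises were in PIP1-1 (log2 fold change 1.42 with SE 0.34, limma adjusted p = 0.0278) and PIP1-3 (log2 fold change 1.52 with SE 0.34, limma adjusted p = 0.0213), in the PIP2 genes PIP2-2, PIP2-3 and PIP2-6, in all TIP2 genes, in TIP3-2 and in SIP1-2. Of the PIP2 genes, PIP2-6 had the smallest p (log2 fold change 1.45 with SE 0.27, limma adjusted p = 0.0109). The log2 fold changes of PIP2-2 and PIP2-3 were 1.35 and 1.48 (limma adjusted p = 0.0246 and 0.0155). TIP2-3 (log2 fold change 2.28 with SE 0.45, limma adjusted p = 0.0124), TIP2-1 (log2 fold change 2.27 with SE 0.47, limma adjusted p = 0.0157) and TIP2-2 (log2 fold change 1.79 with SE 0.38, limma adjusted p = 0.0184) all rose. TIP3-2 (log2 fold change 2.13 with SE 0.57, limma adjusted p = 0.0411) and SIP1-2 (log2 fold change 1.82 with SE 0.35, limma adjusted p = 0.0114) are low in level, and both overlap other annotated genes. In all, 7 of the 32 members overlap another measured gene: TIP2-1 (by 120 bases), TIP3-1, TIP3-2, NIP2-1, NIP6-1, SIP1-2 and SIP2-1. Counting by strand is not given in the sources used here.

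The falls from f1f3 to pifq were in TIP4-1 (log2 fold change -1.13 with SE 0.19, limma adjusted p = 0.00748), NIP1-2 (log2 fold change -0.83 with SE 0.23, limma adjusted p = 0.0426) and NIP5-1 (log2 fold change -0.66 with SE 0.17, limma adjusted p = 0.0337). NIP1-2 (AT4G18910), a close relative of NIP1-1 with 84% identical coding bases, stood at 483 and 381 in Col, 496 and 386 in f1f3 and 272 and 221 in pifq, with both pifq libraries the lowest. TIP4-1 was called in every fit that left out a library. NIP1-2 and NIP5-1 were lost in every such fit, with limma adjusted p from 0.0507 (NIP1-2, without Col replicate 2) to 0.201 (NIP1-2, without pifq replicate 2). Of the 10 rises, 0 were called without pifq replicate 2, where NIP2-1 was called in their place. Without f1f3 replicate 2 only TIP2-3 was called, and without pifq replicate 1 only PIP2-3, PIP2-6 and SIP1-2 were. All 10 were called without f1f3 replicate 1, with PIP1-5, PIP2-1 and TIP1-1 besides, and all but TIP3-2 were called without either Col library. TIP3-2 was also lost with no filter and with the 2 groups alone, as were NIP1-2 and NIP5-1 with the 2 groups alone. The rises lost without f1f3 replicate 2 had limma adjusted p of 0.113 for PIP1-1, 0.0979 for PIP1-3, 0.113 for PIP2-2, 0.0603 for PIP2-3 and just over 0.05 for PIP2-6. For TIP2-1, TIP2-2, TIP3-2 and SIP1-2 the limma adjusted p was 0.0676, 0.0653, 0.109 and 0.0573. Over all alternatives those of PIP1-1, PIP2-2 and TIP2-1 ran from 0.000466 to 0.138, from 9.7e-05 to 0.123 and from 5.27e-06 to 0.0789. With libraries scaled to their totals, the median of all genes moved to -0.15, 44.5% of all calls were rises against 58.6%, and 11 aquaporins rose (TIP1-1 in addition) and 3 fell. DESeq2 called PIP2-1 and TIP1-1 besides the 10 rises (adjusted p = 0.0247 and 0.00316).

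The upstream sequence of the members was searched for 2 motifs bound by PIF proteins in Arabidopsis, the G-box (CACGTG) and the PBE-box (CACATG), on both strands in the 250 bases before the RefSeq gene start (TAIR10.1). The words differ, so no site counts as both. The G-box was in 0 of 32 members and in 7.16% of 22766 upstream windows in all. The PBE-box was in 11 of 32 members, or 34.4%, and in 11.3% of all windows. The 11 are PIP1-2, PIP2-5, PIP2-8, TIP2-1, TIP3-1, TIP3-2, TIP4-1, NIP1-2, NIP6-1, NIP7-1 and SIP1-1. Members share ancestry and are not independent draws, and a match does not show binding. Windows of 3 genes called in pifq against Col are given 5′ to 3′ on the gene's strand, with the PBE-box in capitals: PIP2-8, which rose, at chr2:7301084-7301333 (plus strand), TIP3-2, which fell, at chr1:6129775-6130024 (plus strand), and PIP2-4, which fell and has no match, at chr5:24377207-24377456 (minus strand).
PIP2-8: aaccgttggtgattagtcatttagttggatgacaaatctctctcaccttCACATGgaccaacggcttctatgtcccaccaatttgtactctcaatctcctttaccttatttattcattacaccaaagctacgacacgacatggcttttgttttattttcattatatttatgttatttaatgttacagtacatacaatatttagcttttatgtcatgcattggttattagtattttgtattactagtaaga
TIP3-2: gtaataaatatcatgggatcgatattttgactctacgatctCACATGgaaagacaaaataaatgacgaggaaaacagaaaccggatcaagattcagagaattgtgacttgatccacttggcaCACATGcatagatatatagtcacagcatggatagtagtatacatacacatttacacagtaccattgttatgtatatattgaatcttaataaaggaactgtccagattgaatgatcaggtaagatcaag
PIP2-4: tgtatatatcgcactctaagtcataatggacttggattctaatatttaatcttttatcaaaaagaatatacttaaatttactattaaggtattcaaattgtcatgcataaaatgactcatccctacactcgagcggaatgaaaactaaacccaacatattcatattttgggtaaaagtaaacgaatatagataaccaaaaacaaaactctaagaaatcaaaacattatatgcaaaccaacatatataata
TIP3-2 holds 2 matches and PIP2-8 holds 1. The windows of PIP1-4 and NIP5-1, the other genes called in pifq, hold neither motif.

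Exon numbers were uniform only among the PIP genes and otherwise overlapped between subfamilies. All 13 PIP genes have 4 exons, whereas TIP genes in the files have 2 or 3, NIP genes 4 or 5 and SIP genes 3 or 4. Counted over all aligned columns, gaps included, coding identity was highest between PIP1-3 and PIP1-4, at 85.0%. This count lowers the identity of pairs that differ in length. PIP2-2 and PIP2-3 had 813 identical of 987 columns, or 82.4%, with coding lengths of 987 and 858 bases. Of the 858 bases of PIP2-3, 813 thus matched, so PIP1-3 and PIP1-4 are not shown to be the closest pair. In f1f3 against Col, PIP1-3 fell (-1.96), while PIP1-4 had a log2 fold change of 0.56. TIP1-1 and TIP1-2 share 80.8%, and TIP2-2 and TIP2-3 share 81.5%. In the TIP2 genes both relatives fell.

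Proton pumps power solute transport across the membranes in which PIP and TIP proteins sit. Among 9 plasma membrane proton pumps tested, AHA7 rose in f1f3 (log2 fold change 1.44 with SE 0.45, limma adjusted p = 0.0498), with means of 336 ± 167 (SD, n = 2) in Col and 886 ± 323 (SD, n = 2) in f1f3, and the other 8 did not pass by limma, with a list median log2 fold change of -0.16. DESeq2 called 1 rise and 1 fall in this list, and edgeR 0 of either. AHA1 and AHA2, the abundant pumps, had log2 fold changes of -0.58 and -0.28. Among 12 vacuolar proton pump genes, VHA-B2, a subunit of the vacuolar ATPase, rose in f1f3 (log2 fold change 0.59 with SE 0.18, limma adjusted p = 0.0455), and the list median was 0.10. A count of 1 rise in each list is near the 11.6% of all tested genes that rose. The summed value of the vacuolar pump genes was 95068 and 90227 in Col, 112647 and 103008 in f1f3 and 82837 and 74217 in pifq. In this sum both f1f3 libraries lay above both Col libraries, the reverse of the TIP sum. In pifq against f1f3, AHA3 rose (log2 fold change 0.93 with SE 0.22, limma adjusted p = 0.0273), and AHA7 (log2 fold change -1.81 with SE 0.45, limma adjusted p = 0.0304), VHA-B2 (log2 fold change -0.76 with SE 0.18, limma adjusted p = 0.0262) and VHA-F (log2 fold change -0.79 with SE 0.17, limma adjusted p = 0.0204) fell. Over all tested genes, 9.36% rose and 6.63% fell in pifq against f1f3. In pifq against Col the list medians were -0.21 and -0.27. There limma called 0 of the 9 plasma membrane pumps (0 at an unadjusted p under 0.05, 0 with edgeR, 1 with DESeq2) and 0 of the 12 vacuolar pump genes (1 at an unadjusted p under 0.05, 0 with edgeR and with DESeq2). In lists this short, counts of 0 are near the 6.48% of all tested genes that limma called in pifq against Col.

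Each of these pump calls was lost in some alternatives. A fit with a library left out also has less to estimate the spread from, so a loss there does not single out that library. In f1f3 against Col, AHA7 was lost without Col replicate 1 or either f1f3 library, with edgeR, with a pseudocount of 0.5 and with no filter on low values, over a range of adjusted p from 0.00098 to 0.245 in 16 alternatives. VHA-B2 was lost without any 1 of the 6 libraries, with edgeR, with no filter and with a fit of the 2 groups alone, over a range from 0.00318 to 0.216. In pifq against f1f3, VHA-B2 was again lost without any 1 library and with a fit of the 2 groups alone (limma adjusted p up to 0.116). AHA3 was lost without either f1f3 library or pifq replicate 2 and with limma scaled to library totals (up to 0.153). AHA7 was lost without f1f3 replicate 2 or pifq replicate 1 (up to 0.166), and VHA-F without f1f3 replicate 1 or either pifq library (up to 0.0962).

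Of 10 genes known to act on aquaporin trafficking, phosphorylation or turnover, 3 fell in f1f3 by limma and by edgeR and 5 by DESeq2, where 12.8% of all tested genes fell by limma. Among 20581 genes, edgeR called 2546 falls there and DESeq2 3084. RMA1, a ubiquitin ligase that keeps PIP2-1 from the plasma membrane, stood at 452 and 412 in Col, 203 and 182 in f1f3 and 252 and 330.3 in pifq. Both f1f3 libraries were the lowest (log2 fold change -1.16 with SE 0.21, limma adjusted p = 0.00897). Its relatives RMA2 (log2 fold change -1.30 with SE 0.24, limma adjusted p = 0.00915) and RMA3 (log2 fold change -1.29 with SE 0.31, limma adjusted p = 0.0219) fell as well. In pifq against Col, RMA2 (log2 fold change -1.43 with SE 0.24, limma adjusted p = 0.0151) and OST1 (log2 fold change -1.12 with SE 0.18, limma adjusted p = 0.0127), an abscisic acid-activated kinase that phosphorylates PIP2-1, fell. In pifq against f1f3, OST1 fell (log2 fold change -0.63 with SE 0.18, limma adjusted p = 0.0478). Over all tested genes, 2.87% fell in pifq against Col and 6.63% in pifq against f1f3 by limma. Without f1f3 replicate 2, RMA1 (limma adjusted p = 0.0557) and RMA2 (limma adjusted p = 0.0555) lost their calls in f1f3 against Col. RMA3 lost its call there without f1f3 replicate 2 or Col replicate 1 (limma adjusted p up to 0.122). For pifq against Col, RMA2 was lost without either Col library or pifq replicate 1 (adjusted p up to 0.0969), and OST1 without Col replicate 2 or either pifq library (up to 0.0825). OST1 in pifq against f1f3 was lost without any 1 library and with no filter or a fit of the 2 groups alone (up to 0.172).

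Boron exporters work beside the boric acid channel NIP5-1. Of the 4 tested, BOR1, which loads boron into the root xylem, fell in f1f3 (log2 fold change -1.83 with SE 0.34, limma adjusted p = 0.00887) from 3245 and 5501 in Col to 1295 and 1095, with 1295 and 2419 in pifq. BOR3 rose in f1f3 (log2 fold change 0.80 with SE 0.20, limma adjusted p = 0.0235), and BOR2 fell from f1f3 to pifq (log2 fold change -0.98 with SE 0.22, limma adjusted p = 0.0222). BOR1 was lost without f1f3 replicate 2 (adjusted p = 0.0616), BOR3 without either Col library or f1f3 replicate 2 (up to 0.132) and BOR2 without either f1f3 library or pifq replicate 1 (up to 0.11). Against Col, limma called 0 of the 4 in pifq (3 at an unadjusted p under 0.05, 0 with edgeR, 2 with DESeq2). Over all tested genes, limma called 24.4% in f1f3 against Col, 6.48% in pifq against Col and 16% in pifq against f1f3. DESeq2 called 1355 rises and 1079 falls among 20581 genes in pifq against Col. NIP5-1 itself had a log2 fold change of -0.08 in f1f3.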

How the data were processed

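Whole seedlings were sequenced in 6 libraries, 2 for each of 3 genotypes. Each library has 1 deposited table of 24439 genes with a signal value to 1 decimal. Per the submitters' processing notes, Trimmomatic, TopHat2 2.1.0, HTSeq 0.6.1, edgeR and the TAIR10 build were used; read length, strand and the step that made the values are not given in the sources used here. Between 99.98% and 100% of the values were whole multiples of a number per library (0.799 to 1.29, tolerance 0.0505), whose product with the median-of-ratios size factor was 1. The deposited signal is therefore the count of reads over that factor. The recovered reads came to 17.9 M (Col replicate 1), 23.8 M (Col replicate 2), 20.2 M (f1f3 replicate 1), 21.6 M (f1f3 replicate 2), 27.7 M (pifq replicate 1) and 19.4 M (pifq replicate 2).

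Tests used limma 3.58.1, its variance trended on mean level, on log2(value + 1), two-sided, with all 6 libraries in 1 fit without covariates (3 residual and 5.15 prior degrees of freedom). A fold change on this scale understates the change of low genes. Alternatives were edgeR 4.0.16 and DESeq2 1.42.0 on the recovered reads, other scalings, pseudocounts and filters, the 2 groups alone, a replicate block and leaving out each library. The scripts were tested on simulated data. The family, the lists and the markers were chosen with earlier results of these data known, though the rule for membership used loci alone. Named are all members called in any comparison, the highest of each subfamily per kilobase, and at most 4 called genes per further list and comparison. The root and shoot markers named beyond that were chosen after their values were seen. Sequences, positions and lengths are from RefSeq (TAIR10.1), which names the same loci, since the files hold no coordinates. Of 125 listed genes, 7 are not analysed here.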

Additional observations from a re-analysis of the deposited data

How the results depend on the processing

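No aquaporin call changed direction under any of the 16 alternatives. In f1f3 against Col, 10 of 18 called members kept their call throughout: PIP1-1, PIP1-3, PIP2-2, PIP2-3, PIP2-4, PIP2-6, PIP2-8, TIP2-2, TIP2-3 and TIP3-2. In pifq against Col 0 of 5 did, and in pifq against f1f3 1 of 13 did (TIP4-1). With a library left out, the aquaporins that fell in f1f3 against Col numbered 9 to 14 and those that rose 1 to 3, with 1460 to 4650 genes called in all, against 5018. In pifq against Col 0 to 2 fell and 0 to 2 rose, with 358 to 1261 genes called against 1333. The lowest counts came from limma without either pifq library, where 9 and 9 aquaporins had an unadjusted p under 0.05; edgeR and DESeq2 were not run without a library. In pifq against f1f3 1 to 13 rose and 1 fell in each, with 1394 to 2916 called against 3291. Scaling to library totals gave 5 rises in f1f3. DESeq2 gave 5 falls in pifq against Col and 2434 genes in all, and the fit without a filter gave 1 rise there. With only the 2 groups compared, 1 aquaporin fell from f1f3 to pifq. The causes of these differences were not tested.

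The labels number the libraries of each genotype 1 and 2 without saying that a number marks a shared batch. The differences between replicates correlated across genes by 0.345 (Col and f1f3), 0.444 (Col and pifq) and 0.215 (f1f3 and pifq), from 2 numbers only, so the libraries were treated as unpaired. With the replicate number as a block, 5 aquaporins rose and 16 fell in f1f3 against Col (7436 genes in all), 3 rose and 5 fell in pifq against Col (2915 genes) and 12 rose and 3 fell in pifq against f1f3 (5458 genes). The members called with the block and not without it were PIP1-4, SIP1-1 (rises) and SIP1-2 (a fall) in f1f3 against Col, PIP2-5 (a rise), NIP1-2 and NIP6-1 (falls) in pifq against Col, and PIP2-1 and TIP1-1 (rises) in pifq against f1f3. Of these, other alternatives also called all but SIP1-2 and PIP2-5. With 2 libraries per genotype, a p above the threshold does not show that a member was unaltered.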
